A study of Mus musculus with 2 samples.

Results

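Agtr2 encodes the angiotensin II type 2 receptor, and is described here as 1 of the 32285 genes counted in single-cell RNA sequencing of mouse limb muscle. It was chosen by its symbol, after an earlier look at these counts had placed it among the genes with the largest difference between ages in muscle cells. The tissue came from C57Bl/6 embryos of WT genotype at embryonic days written E12.5 and E15.5, with forelimbs and hindlimbs in the same library. Each age is 1 droplet library from trypsin-dissociated cells, and the labels do not give the number or sex of the embryos. Age and library therefore cannot be told apart, no test between ages was possible, and every interval below is a 95% interval that covers counting error only.

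In the renin-angiotensin system, the protease renin cuts the precursor angiotensinogen, angiotensin converting enzyme makes angiotensin II from the product, and 2 receptor types answer it. The type 1 receptor carries the constriction of vessels and the retention of salt. The type 2 receptor is a G protein-coupled receptor that opposes many of those responses, and it is known for its abundance in foetal mesenchyme and its low level in most adult tissues.

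Agtr2 (ENSMUSG00000068122) lies on the plus strand of chromosome X at 21484544 to 21489164 of GRCm38, the mouse build also called mm10, in the GENCODE annotation. Its coding transcript has 3 exons, and the coding sequence of 1089 bases lies wholly in exon 3, at 21486129 to 21487217. Exon 3 measures 3072 bases, so a library that reads the 3′ ends of transcripts counts this gene mainly through that exon. No other annotated gene overlapped Agtr2, and the nearest one, Gm22592, was 11202 bases away, so that no neighbour shares its reads. The stretch directly before the annotated start is shown because it is the upstream DNA of a gene whose level differed between muscle states below, and the capitals mark the E-boxes, the CANNTG letters that helix-loop-helix factors such as Myod1, Myog and Twist2 bind.

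Agtr2 upstream, chrX:21484374-21484543, plus strand, RefSeq, GRCm38.p6: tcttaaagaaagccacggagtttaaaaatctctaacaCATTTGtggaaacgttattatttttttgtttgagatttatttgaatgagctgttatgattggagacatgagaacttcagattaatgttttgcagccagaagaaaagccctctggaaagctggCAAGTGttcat

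These 170 bases end where the GENCODE transcript begins, and RefSeq places the start 80 bases further on. CANNTG reads the same on both strands, and it was found at 21484411 to 21484416 and at 21484533 to 21484538. Of 32851 windows of the same kind, from 250 bases before to 50 bases after a gene's start, 72.3% held it. CCAAT, a promoter element, was present on the minus strand at 21484468 to 21484472, as it was in 37.4% of windows on either strand, and it did not overlap an E-box. A TATAA element, present in 24.9% of windows, lay 26 bases before the RefSeq start on the plus strand. By the GENCODE start it lay inside exon 1, and so outside the stretch shown. Both strands were searched for each motif. These are matches of letters and were not tested as binding sites.

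The E12.5 library held 34907675 UMIs (unique molecular identifiers, each marking 1 captured RNA molecule) in 12941 barcodes, and the E15.5 library held 46966083 in 5780 barcodes. After filtering, 11001 cells of a median of 2323 UMIs and 3916 cells of a median of 9329 UMIs remained, and 11 kept barcodes occurred in both libraries. Cell classes were rebuilt from clusters, since no annotation of the authors was used, and no class name was given to 7.18% of the earlier and 27.0% of the later cells. Levels are given as CPM, the UMIs of a gene per 1000000 UMIs of the cells named. The markers that named the classes are given by their summed level, as a description. The 17 muscle markers summed to 14198 CPM in muscle and 129.7 CPM in connective tissue cells in the earlier library. In the later one they summed to 6856 and 84.3 CPM, with Myh2 at 0 in muscle. The 10 endothelial markers summed to 5751 and 6245 CPM in endothelial cells at the 2 ages, against 22.7 and 34.6 CPM in muscle. The 12 immune markers summed to 5823 and 15771 CPM in immune cells, against 19.1 and 6.17 CPM in muscle.

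Agtr2 was a transcript of connective tissue and of the cells named tenocyte-like at both ages. At E15.5 it was also detected in muscle, cartilage and mural cells. In all these classes the E15.5 level lay well above that in endothelial, immune, mast and Schwann cells. The 18 erythroid barcodes of E15.5 stood at 84.2 CPM (53.4 to 126), an interval that overlapped that of muscle. The part of free RNA in these levels was not tested. The kept E12.5 cells held 925 Agtr2 UMIs, in 6.97% of cells, and those of E15.5 held 9402, in 57.3% of cells. Of these, the connective tissue class held 82.8% (E12.5) and 64.8% (E15.5). The muscle class held 0.757% and 4.42%.

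At E15.5 the connective tissue class of 1159 cells had 6090 Agtr2 UMIs, a level of 476 CPM (464 to 488). An Agtr2 UMI was present in 92.0% of these cells, with up to 33 in a cell, at a median depth of 10064 UMIs. Chondrocyte-like cells, which build cartilage, stood at 89.6 CPM (81.4 to 98.3). Tenocyte-like cells of tendon had 87.9 CPM (73.9 to 104) and mural cells, which wrap small vessels, had 86.2 CPM (69.4 to 106). The muscle class of 397 cells had 416 UMIs, a level of 67.6 CPM (61.2 to 74.4), with a UMI in 47.9% of cells, up to 13 in a cell, and a median depth of 14350 UMIs. The muscle interval overlapped those of the tenocyte, mural and erythroid classes and lay below that of the chondrocyte class as a whole. Within that class, the cluster led by Dkk3 and Gdf5 had 108.9 CPM, with an interval above that of muscle. The clusters led by Mia and Cytl1, by Col9a3 and Col2a1, and by Matn1 and Col2a1 had 70.2, 85.8 and 36.6 CPM. The intervals of these last clusters overlapped that of muscle. As direct log2 ratios, muscle stood at -0.38 (-0.66 to -0.093) over tenocyte-like cells and -0.35 (-0.68 to -0.0090) over mural cells. Both of these intervals lay wholly on the side of a lower muscle level.

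At the low end of the E15.5 library, endothelial cells had 18 Agtr2 UMIs in 152 cells, or 8.72 CPM (5.17 to 13.8). Immune cells had 4 UMIs in 81 cells, or 4.75 CPM (1.30 to 12.2). Schwann-like cells stood at 4.29 CPM (1.17 to 11.0) and mast cells at 4.06 CPM (1.49 to 8.83), so that the intervals of these 4 classes overlapped one another. The 25 epithelial cells had 13 UMIs, all in 2 cells, and the 10 melanocyte-like cells had 0, which allows a level of up to 28.9 CPM. Erythroid barcodes, 18 in number, had 84.2 CPM (53.4 to 126), and they also held Col1a1, a collagen chain of connective tissue, at 1307 CPM against 123 CPM in muscle cells.

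At E12.5 the order was headed by the class that the marker rule named tenocyte-like. Its 523 cells, led by Dcn, Grem1 and Kera, had 96 Agtr2 UMIs and 85.6 CPM (69.3 to 105). Of the tenocyte markers, Kera and Thbs4 were among its 10 leading genes, and Scx, Tnmd and Mkx were not. The connective tissue class of 7591 cells followed with 766 UMIs, 41.6 CPM (38.7 to 44.7), in 8.35% of cells at a median depth of 2230 UMIs. The muscle class of 606 cells had 7 UMIs in 7 cells, 2.79 CPM (1.12 to 5.75), although its median depth of 3763.5 UMIs was higher. Chondrocyte-like cells had 11 UMIs and 3.26 CPM (1.63 to 5.83), and endothelial cells had 2 UMIs and 3.24 CPM (0.393 to 11.7). No Agtr2 UMI was found in 25 immune, 27 Schwann-like or 15 epithelial cells, which allows levels of up to 26.7, 27.1 and 66.3 CPM. The intervals of muscle, chondrocyte-like and endothelial cells overlapped, and all 3 lay below that of connective tissue.

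**Figure D1:**
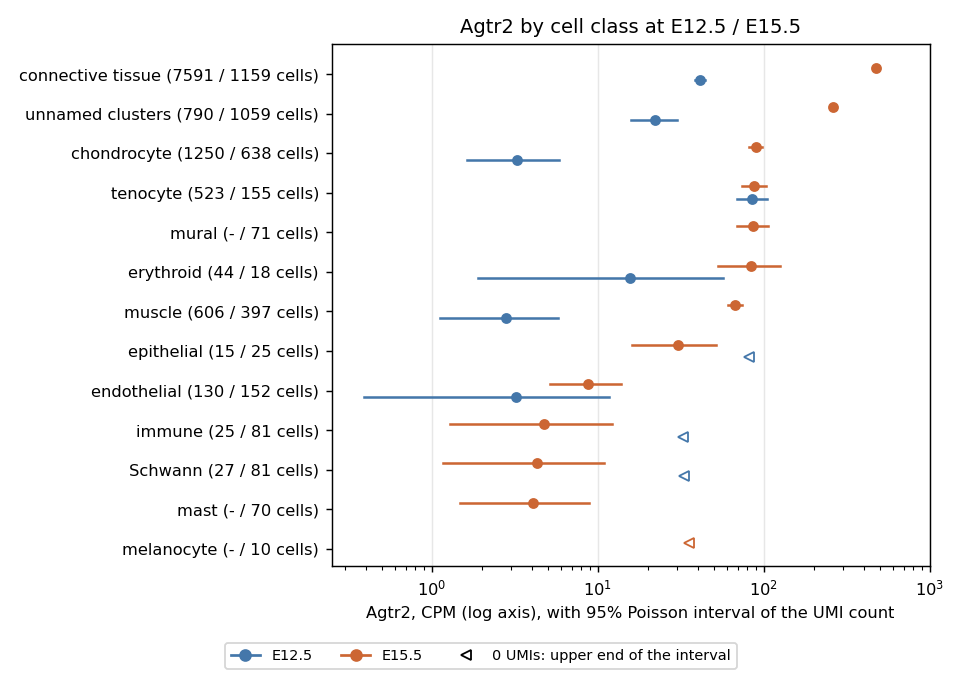
Agtr2 level in CPM (log axis) for each cell class at E12.5 (blue) and E15.5 (orange), with the 95% Poisson interval of the UMI count as a line and the number of cells in brackets. Connective tissue heads the named classes at E15.5 with 476 CPM, and muscle lies at 67.6 CPM at E15.5 against 2.79 CPM at E12.5.

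Within the connective tissue class, the level was uneven at both ages. The highest E12.5 cluster, 668 cells led by Calb2 and Apcdd1, had 120 CPM (105 to 138), with a UMI in 25.6% of cells. A cluster led by Calb2, Lum and a histone gene followed at 82.5 CPM (69.1 to 97.8), and a cluster led by Aldh1a2 and Cxcl12 had 43.7 CPM (35.3 to 53.5). The lowest connective tissue clusters were led by Dcc and Epha5, at 13.1 CPM (8.41 to 19.5), and by Gdf5, a ligand gene of forming joints, at 8.12 CPM (4.81 to 12.8). At E15.5 the 4 connective tissue clusters lay between 331 and 589 CPM. The top one was led by Dpt, Apod and Cd55, with 589 CPM (559 to 622), and the largest, 652 cells led by Fst, Sfrp4 and Clec3b, had 488 CPM (471 to 506). The lowest, led by Aldh1a2 and Cxcl13, had 331 CPM (295 to 369).

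Clusters without a class name held 22.9% of the E15.5 Agtr2 UMIs and ranged from the connective tissue level to below that of muscle. One of 387 cells led by Aldh1a3 and Ngfr had 386 CPM (367 to 405) and a UMI in 92.0% of cells. Another, 83 cells led by Stmn2, Twist2 and Irx1, had 23.4 CPM (14.8 to 35.1). A small cluster of 70 cells led by Gm26917, at a median depth of 2818 UMIs, had 403 CPM (325 to 495).

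**Figure D2:**
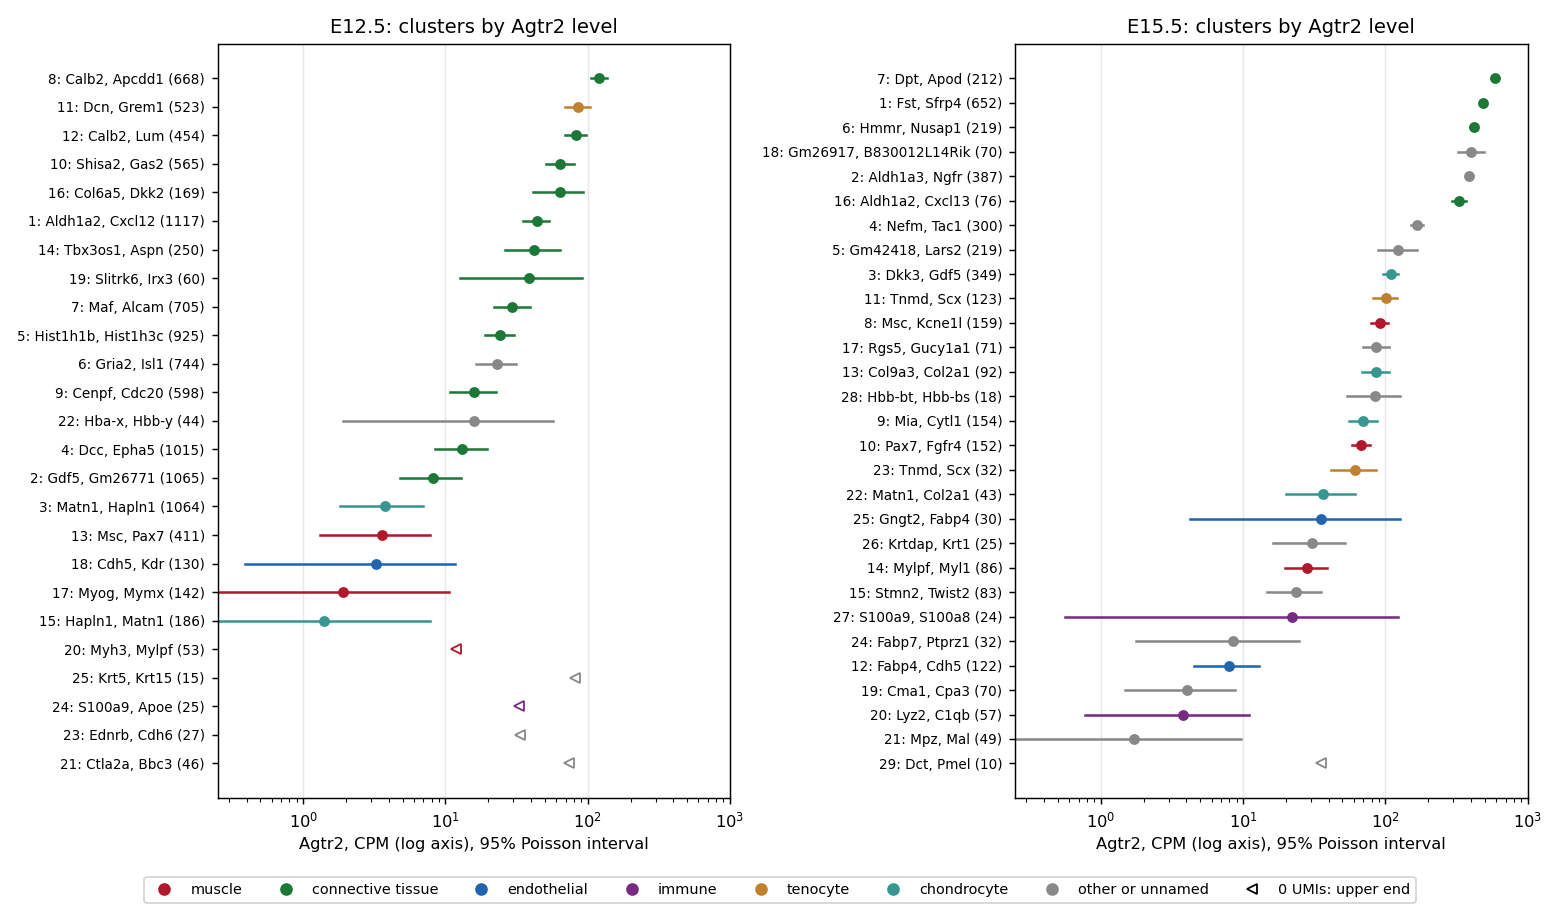
Agtr2 level in CPM (log axis) for every cluster of the E12.5 library (left) and the E15.5 library (right), in order of level, with 95% Poisson intervals, the first leading genes and the number of cells in brackets. Connective tissue clusters (green) head both panels, from 120 CPM at E12.5 and 589 CPM at E15.5, and the muscle clusters (red) lie between 0 and 3.60 CPM on the left and between 28.2 and 91.0 CPM on the right.

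Set side by side, Agtr2 was 24.2-fold higher at E15.5 in muscle, a log2 ratio of 4.60 (3.54 to 5.92), and 11.4-fold higher in connective tissue, a log2 ratio of 3.52 (3.41 to 3.63). In muscle, 6 of 11269 genes had a higher ratio than Agtr2, and in connective tissue 208 of 14911 did. The gene was picked for its muscle ratio, so that rank is a description. At least 2-fold higher levels at E15.5 were found for 4.64% of genes in muscle and 10.7% in connective tissue, and the median gene stood at -0.36 and -0.37 on the log2 scale. Without removal of doublets (droplets holding more than 1 cell), the E12.5 muscle class held 18 Agtr2 UMIs instead of 7, and its log2 ratio was 3.65 (2.98 to 4.42).

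The other classes did not share 1 ratio. Tenocyte-like cells stood at 85.6 and 87.9 CPM, a log2 ratio of 0.038 (-0.35 to 0.43). Their leading genes differed, with Tnmd and Scx at E15.5 only, so this ratio may compare unlike cells. Chondrocyte-like cells had a log2 ratio of 4.78 (3.93 to 5.79). A cluster led by Dkk3 and Gdf5 that the marker rule placed with the cartilage cells at E15.5 contributed 257 of their 440 UMIs, whereas the E12.5 cluster led by Gdf5 was placed with connective tissue. In endothelial cells the log2 ratio was 1.43 (-0.64 to 4.58), an interval that includes 0.

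The muscle level was next set beside that of endothelial and immune cells, in which Agtr2 was low at both ages. Whether those cells transcribe Agtr2 themselves, and the part of free RNA in either level, was not tested. At E15.5 muscle had 67.6 CPM against 7.57 CPM (4.74 to 11.5) in the 233 endothelial and immune cells as 1 pool, 8.92-fold (5.82 to 14.4) more, or 3.16 on the log2 scale (2.54 to 3.85). At E12.5 a difference was not detectable: 2.79 CPM stood against 2.74 CPM (0.332 to 9.91) in 155 cells, a log2 ratio of 0.024 (-2.37 to 3.33), which rests on 7 and 2 UMIs. An excess of the size seen at E15.5 lies inside that interval, so the E12.5 depth cannot show if one was present.

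At E15.5, 14.5% of 11865 genes were at least 2-fold higher in muscle than in endothelial and immune cells, and 455 genes had a higher ratio than Agtr2. At E12.5 the share was 15.7% of 10212 genes, and 5314 genes had a higher ratio than Agtr2. Against single classes at E15.5, muscle was 7.75-fold above endothelial, 14.2-fold above immune, 15.7-fold above Schwann-like and 16.7-fold above mast cells. It was 2.23-fold above epithelial cells, a log2 ratio of 1.16 (0.37 to 2.08). Against the 18 erythroid barcodes the muscle level was 0.803 times theirs, a log2 ratio of -0.32 (-0.92 to 0.36), an interval that includes 0. With every cell given equal weight the log2 ratio to endothelial and immune cells was 2.37. With the background clusters of a median under 2000 UMIs left out, a choice made after the data were seen, the ratio of sums was 3.32 (2.66 to 4.06).

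The shares of cells gave the same order. Before thinning, 47.9% of muscle cells and 8.58% of endothelial and immune cells at E15.5 had an Agtr2 UMI, at median depths of 14350 and 10586 UMIs. When each cell was thinned to 2000 UMIs, with 6 muscle and 42 endothelial and immune cells left out as too shallow, the shares were 12.53% (9.42 to 16.2) and 1.05% (0.127 to 3.73), a difference of 11.5 percentage points (7.51 to 15.2). The size of this gap followed the thinning depth, from 5.75 points at 1000 UMIs to 20.9 points at 5000. At E12.5 the thinned shares were 4 of 556 muscle cells, 0.719% (0.196 to 1.83), and 0 of 141 endothelial and immune cells, which allows a share of up to 2.13%. Connective tissue cells, thinned alike, stood at 7.20% (6.47 to 7.99) in the E12.5 library and at 55.6% (52.7 to 58.5) in the E15.5 library.

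Muscle at E15.5 held less Agtr2 than connective tissue, by a factor of 0.142 or -2.82 (-2.96 to -2.67) on the log2 scale, and also held some connective tissue RNA. The 12 connective tissue markers summed to 907 CPM in muscle, with all 12 present, 452 CPM in endothelial, 317 CPM in immune and 19524 CPM in connective tissue cells. At E12.5 the sum was 526 CPM in muscle, with 11 of 12 present, against 177 CPM in endothelial and 3353 CPM in connective tissue cells. Agtr2 was therefore also expressed per 100 UMIs of Col1a1 and of 7 other connective tissue genes, and the part of connective tissue RNA in the muscle level was not tested.

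At E15.5 there were 10.8 Agtr2 UMIs (10.5 to 11.1) per 100 Col1a1 UMIs in connective tissue, 10.5 (6.09 to 17.1) in endothelial cells, 5.13 (1.36 to 13.7) in immune cells and 6.44 (4.03 to 9.82) in erythroid barcodes. Muscle cells had 55.0 (48.6 to 62.0), which is 5.07 times the connective tissue value. For each of the 8 genes the muscle value was the higher one, from 2.43 times the connective tissue value for Col3a1 and Col1a2 to 8.43 times for Dcn and 9.90 times for Twist2, the last on 5 UMIs in muscle. The endothelial interval overlapped that of connective tissue for each of the 8 genes except Dcn. It also overlapped that of muscle for Col3a1, Prrx1 and Osr1. Per 100 UMIs of Col3a1, endothelial cells had 13.6 Agtr2 UMIs (7.84 to 22.4) and muscle cells 20.1 (18.0 to 22.3). Pdgfra, Prrx1, Twist2 and Osr1 had at most 8 UMIs each in endothelial cells, so their intervals were wide. Per 100 UMIs of Dcn, endothelial cells had 75 Agtr2 UMIs (38.4 to 144), on 18 and 24 UMIs. Connective tissue had 29.4 (28.6 to 30.2) and muscle 248 (207 to 298), and these 3 intervals did not overlap. At E12.5 muscle had 6.54 Agtr2 UMIs (2.57 to 14.0) per 100 Col1a1 UMIs and connective tissue 8.33 (7.73 to 8.97), overlapping intervals and a ratio of 0.785, and over the 8 genes that ratio ran from 0.257 for Col1a2 to 1.28 for Osr1. Schwann-like cells at E15.5 had Col1a1 at 1502 CPM and 0.286 Agtr2 UMIs per 100, on 4 Agtr2 UMIs. For Col1a1 the proportion therefore differed between classes on both sides of that in connective tissue. The Schwann-like interval also lay below that of connective tissue for Col1a2, Col3a1 and Prrx1. It overlapped that of connective tissue for Dcn, Pdgfra, Osr1 and Twist2.

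**Figure D3:**
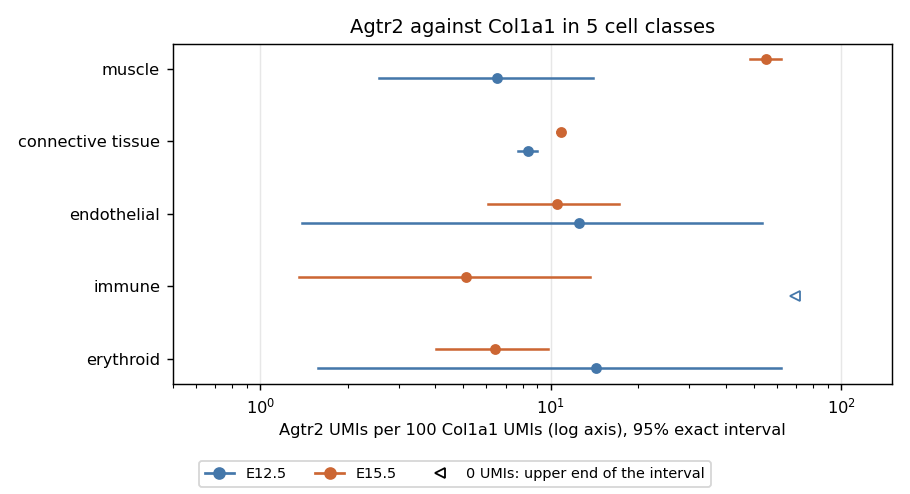
Agtr2 UMIs per 100 Col1a1 UMIs (log axis) in 5 cell classes at E12.5 (blue) and E15.5 (orange), with exact 95% intervals. At E15.5 muscle stands at 55.0 while connective tissue, endothelial, immune and erythroid cells lie between 5.13 and 10.8, and at E12.5 the muscle interval overlaps that of connective tissue.

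Inside the E15.5 muscle class, Agtr2 was higher in cells with progenitor genes than in differentiating cells. Muscle progenitors carry the transcription factor gene Pax7, and Myog, the differentiation factor myogenin, marks cells on the way to fibres. The 198 cells with a Pax7 UMI and none of Myog had 87.6 CPM of Agtr2 (77.4 to 98.7), with a UMI in 61.6% of cells. The 52 cells with both had 57.3 CPM (43.1 to 74.8), and the 113 cells with Myog and no Pax7 had 22.4 CPM (15.9 to 30.7), in 18.6% of cells. The 3 intervals did not overlap, and the median depths, 14589, 16388.5 and 13766 UMIs, did not follow that order. The lowest of them lay above the endothelial and immune interval.

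The 34 cells with neither gene had the highest level, 132.9 CPM (99.8 to 173). They carried Msc, a progenitor gene, at 340 CPM and Myf5, an early myogenic factor, at 61.5 CPM, close to the 345 and 76.2 CPM of the Pax7 cells, while Myog cells without Pax7 had 36.2 and 7.48 CPM. Col1a1 did not share the order of Agtr2. It stood at 101.9 CPM (90.9 to 114) in Pax7 cells and 103 CPM (74.5 to 140) in the cells with neither gene. Myog cells without Pax7 had 147 CPM (129 to 166) of it. Dcn, in the same order of subsets, had 16.3, 14.8 and 53.5 CPM, on 50, 6 and 93 UMIs. Prrx1 had 11.4, 9.84 and 12.1 CPM, on 35, 4 and 21 UMIs. Pdgfra had 7.81, 12.3 and 6.33 CPM, on 24, 5 and 11 UMIs, and so shared the order of Agtr2 here. For Prrx1 and for Pdgfra the intervals of these subsets overlapped.

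The muscle clusters gave the same order. The cluster led by Msc and Kcne1l had 91.0 CPM (78.7 to 105), that led by Pax7 and Fgfr4 had 67.5 CPM (58.2 to 78.0), and that led by the contractile genes Mylpf, Myl1 and Tnnc2 had 28.2 CPM (19.7 to 39.0). At E12.5, 6 of the 7 muscle UMIs lay in the cluster led by Msc and Pax7, 1 in that led by Myog and 0 in that led by Myh3. These counts are too low to show a difference between the states at that age.

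Other divisions of the E15.5 muscle class gave smaller differences. Cells with a UMI of the proliferation genes Top2a or Mki67 had 70.1 CPM (62.9 to 77.9) and the rest 57.2 CPM (44.6 to 72.2). Male cells, called by Y-linked UMIs, had 62.6 CPM (48.5 to 79.5) and female cells 65.4 CPM (58.2 to 73.3), for a gene on chromosome X. Split by depth into 3 parts of like size, the shallowest cells had 71.1 CPM, the middle part 66.0 and the deepest 67.1. In each of these divisions the intervals overlapped.

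Connective tissue RNA moved with the muscle level in part. The 63 muscle cells with a UMI of Prrx1, Pdgfra, Osr1 or Twist2, genes of connective tissue, had 109.9 CPM of Agtr2 (90.1 to 133), and the 334 cells without had 59.6 CPM (53.1 to 66.6). Among the cells without, an Agtr2 UMI was present in 46.7%, and their log2 ratio to endothelial and immune cells was 2.98 (2.35 to 3.67). This division was added after the data were seen.

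**Figure D4:**
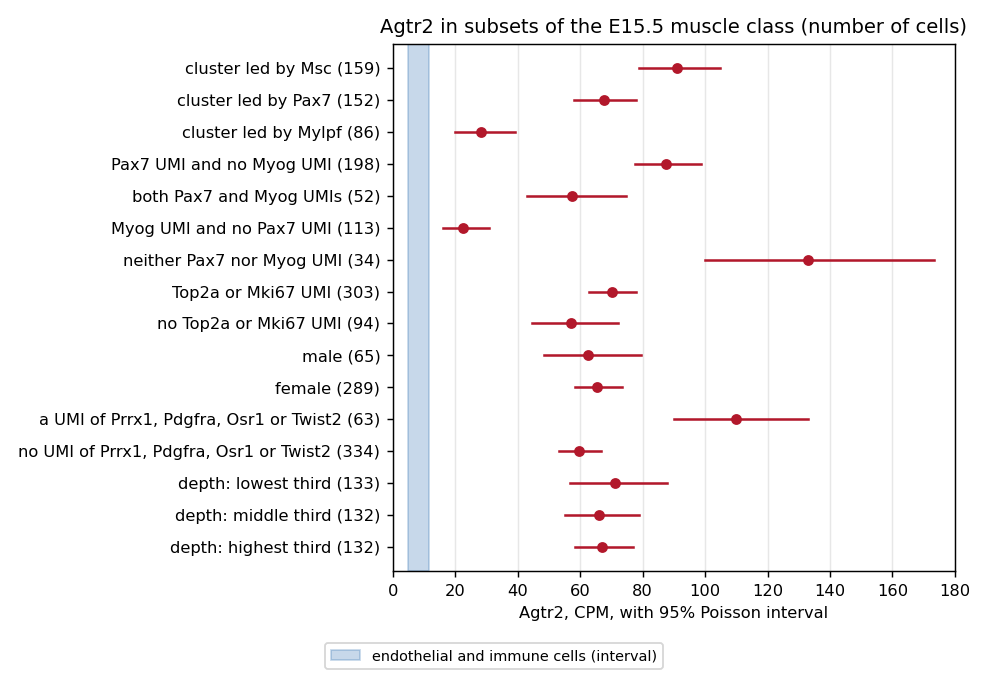
Agtr2 level in CPM in subsets of the E15.5 muscle class, with 95% Poisson intervals and the number of cells in brackets; the blue band is the interval of endothelial and immune cells, 4.74 to 11.5 CPM. Every subset lies above the band, from 22.4 CPM in Myog cells without Pax7 to 132.9 CPM in cells with neither gene.

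To see what else differed between muscle cells with and without the receptor transcript, each E15.5 muscle cell was thinned to 5000 UMIs. This left 385 cells, of which 104, or 27.0%, had an Agtr2 UMI and 281 had none. Of 6277 genes, the 10 highest in Agtr2 cells were Myf5, Tagln, Igf1r, Cbx6, Scd2, Vcan, Tmem128, Ly6e, Smarcc2 and Rrbp1, with log2 differences of 0.61 to 0.75 after 50 CPM were added to both sides. Myf5 stood at 96.2 CPM in cells with Agtr2 and 37.0 CPM in cells without. Igf1r, the receptor of insulin-like growth factor 1, had 244 and 138 CPM, and the proteoglycan gene Vcan had 313 and 186 CPM.

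The 10 lowest genes were Ttn, Neb, Tnnt2, Myog, Myl1, Actc1, Tnnc2, Mylpf, Tnni1 and Fndc5, from -1.34 to -0.92 on the same scale. Besides Myog and Fndc5 they encode parts of the sarcomere, the contractile unit of muscle. Ttn, the giant spring protein titin, had 288 CPM with Agtr2 and 808 CPM without, and Myog had 298 and 664 CPM. Of the other state genes, Pax7 had 148 and 92.5 CPM, Myod1 78.8 and 85.4 CPM, and the fusion gene Mymk 55.8 and 86.8 CPM. Of the connective tissue genes, Col1a1 had 148 and 115 CPM, Prrx1 had 13.5 and 8.54 CPM on 7 and 12 UMIs, and Pdgfra had 9.62 and 2.85 CPM on 5 and 4 UMIs. Dcn had 32.7 and 27.8 CPM, while Osr1 and Twist2 had 0 UMIs in cells with Agtr2 and 7 and 3 UMIs in cells without. The 50 CPM added before the log make the differences of such low genes smaller. These genes were picked for their difference, so the values are a description with no test.

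The connective tissue class was divided by limb and sex. Tbx5 marks forelimb cells, and Tbx4 and Pitx1 mark hindlimb cells. At E15.5 the 152 cells with Tbx5 alone had 595 CPM of Agtr2 (561 to 631) and the 501 cells with the hindlimb genes alone had 401 CPM (384 to 419). Their median depths were 12208.5 and 9558 UMIs, and their make-up by cluster was not compared. At E12.5 the forelimb and hindlimb levels were 47.3 (38.5 to 57.5) and 42.4 CPM (38.0 to 47.1), with overlapping intervals. Male and female connective tissue cells stood at 474 and 481 CPM at E15.5, and at 52.8 (44.1 to 62.7) and 37.1 CPM (33.7 to 40.9) at E12.5. Cells with a UMI of Top2a or Mki67 had 459 CPM (443 to 475) and the rest 497 CPM (479 to 515) at E15.5.

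The genes whose level across clusters was most like that of Agtr2 were sought in each library. Likeness was measured as Pearson's r of log2(CPM + 10) over 27 clusters and 10818 genes at E15.5. The clusters share a library and fall into broad classes, so r describes this library only. The 10 highest were Fap at 0.929, Srpx2 at 0.918, Lrrc17 at 0.911, Scara5 at 0.865, Dlk1 at 0.863, Bicc1 at 0.860, Fbn1 at 0.853, Col6a6 at 0.851, Npas3 at 0.848 and Tnxb at 0.846. Fap, a fibroblast surface protease, had 82.4 CPM in connective tissue, 16.6 in muscle and 3.39 in endothelial cells. Dlk1, an imprinted gene, was also carried by muscle, with 3068, 809 and 34.4 CPM. At E12.5, over 24 clusters and 10125 genes, the 5 highest were Tril at 0.946, the collagens Col1a1 at 0.922 and Col3a1 at 0.899, Rab11fip2 at 0.892 and the endothelin receptor gene Ednra at 0.888.

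The pathway around the receptor was read from a list of 28 renin-angiotensin genes, with a 2-fold ratio between ages as the limit for a call in genes with at least 20 UMIs in a class. Agtr2 was chosen by its ratio between ages and is left out of the counts of higher genes. In connective tissue, 8 of the other 20 such genes were higher at E15.5, against 10.7% of all genes, and 2 were lower, against 24.8%. The list's median log2 ratio, over 21 genes with Agtr2, was 0.32, or 0.57 with genes of 0 UMIs at 1 age set to their bound, and the median of all genes was -0.37. In muscle, 1 of the other 12 was higher, Cma1, against 4.64% of all genes, and 1 was lower, against 19%. The median there, over 13 genes with Agtr2, was -0.11, or -0.049 with genes at their bound, and that of all genes was -0.36. Another 7 genes in connective tissue and 15 in muscle had too few UMIs for a ratio.

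The precursor and the proteases that can cut it came next, and Agt, Ren1 and Ace were sparse in muscle and connective tissue. Agt, which encodes angiotensinogen, had 1 and 27 UMIs at the 2 ages in connective tissue, and 0 and 1 in muscle. Ren1, the renin gene, had 0 UMIs at E12.5 and 109 UMIs, 8.52 CPM, at E15.5 in connective tissue, and none in muscle at either age. Ace, the converting enzyme, was found at 7.75 CPM in E15.5 endothelial cells on 16 UMIs, at 0.704 CPM in connective tissue and at 0 in muscle. Ctsd, a lysosomal protease, had 37.3 and 80.2 CPM in connective tissue, a log2 ratio of 1.10 (0.96 to 1.24), and 24.3 and 35.9 CPM in muscle.

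Cma1 encodes the chymase of mast cells. At E15.5 it had 12489 CPM in mast cells, 4.38 CPM in muscle, 3.75 CPM in connective tissue and 3.39 CPM in endothelial cells. It was at 0 in muscle and connective tissue at E12.5, where no mast class was found. The E15.5 intervals of muscle, connective tissue and endothelial cells, on 27, 48 and 7 UMIs, overlapped, and the part of free mast cell RNA in them was not tested.

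The angiotensin receptors other than Agtr2 were low or lay inside the 2-fold limit. Agtr1a, the main type 1 receptor gene of mice, had 12.01 CPM in E12.5 and 15.01 CPM in E15.5 connective tissue, a log2 ratio of 0.32 (0.035 to 0.61). In muscle it had 2 and 5 UMIs, 0.797 and 0.812 CPM. Agtr1b, Mas1, the receptor of angiotensin 1-7, and Mrgprd had at most 3 UMIs in either class at either age. Bdkrb2, the bradykinin receptor gene, had 0.707 and 3.28 CPM in connective tissue, a log2 ratio of 2.22 (1.29 to 3.24).

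Peptidases that trim or destroy angiotensins were carried by both classes. In connective tissue Anpep had 6.30 and 20.3 CPM, a log2 ratio of 1.69 (1.37 to 2.02). Prcp had 12.2 and 4.61 CPM, a log2 ratio of -1.41 (-1.85 to -0.99), and Prep had 49.3 and 19.5 CPM, a log2 ratio of -1.34 (-1.55 to -1.14). Lnpep, at 74.6 and 39.1 CPM, and Mme, the neprilysin gene, at 74.6 and 39.0 CPM, lay just inside the limit. Enpep, Rnpep, Nln and Thop1 lay between -0.36 and 0.79. In muscle Mme, on 16 and 17 UMIs, had 6.38 and 2.76 CPM, a log2 ratio of -1.21 (-2.28 to -0.13). Lnpep, Rnpep, Nln, Thop1, Prcp and Prep lay between -0.84 and 0.40 there.

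Among the partners of the receptors, Agtrap, whose product binds the type 1 receptor, had 9.95 and 23.1 CPM in connective tissue, a log2 ratio of 1.22 (0.95 to 1.49), and 6.77 and 7.47 CPM in muscle. Nr3c2, the mineralocorticoid receptor gene, had 2.99 and 7.04 CPM in connective tissue, a log2 ratio of 1.23 (0.74 to 1.75). Mtus1, whose product binds the type 2 receptor, had 8.15 and 12.1 CPM in connective tissue and 6.38 and 5.68 CPM in muscle, with log2 ratios of 0.57 and -0.17. Zbtb16, a zinc finger protein that also binds it, had 7.61 and 5.63 CPM in connective tissue. Atp6ap2, the renin receptor gene, had log2 ratios of 0.099 in connective tissue and -0.049 in muscle.

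**Figure D5:**
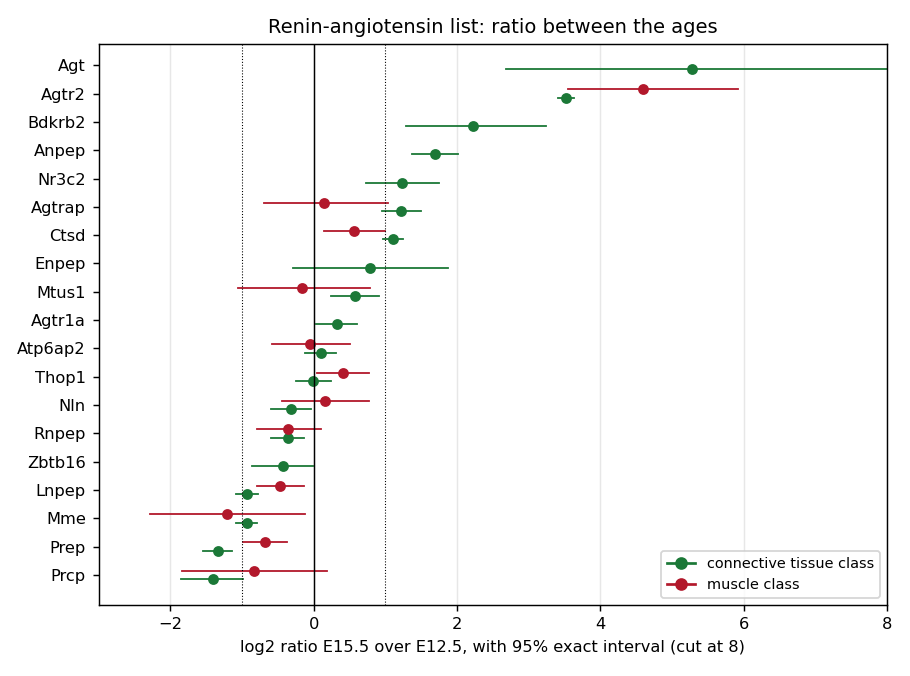
Log2 ratio of CPM, E15.5 over E12.5, for the renin-angiotensin genes with at least 20 UMIs over both ages in connective tissue (green) or muscle (red), with exact 95% intervals, cut at 8, and dotted lines at the 2-fold limit. Agtr2 is the only gene past the limit in both classes here, at 3.52 and 4.60; Ren1 and Cma1, at 0 UMIs at E12.5, have no ratio and are not drawn.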

How the data were processed

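Agtr2, the lists and the rules for named genes were chosen with earlier results of these data known. The authors deposited raw UMI counts per gene and barcode for 2 libraries, 1 per age, made with Cell Ranger 4.0.0 per the file headers. The submitters' processing notes also name Seurat 4.3.0 and build mm10, and the annotation release is not given in the sources used here. Cells with at least 500 genes and under 10% mitochondrial UMIs were kept, and doublets were removed by score up to 0.8% per 1000 barcodes (1270 and 190 cells). Each library was clustered alone (2000 variable genes, 30 components, 15 neighbours, Leiden resolution 1.0), and 77 genes, Agtr2, its pathway and the myogenic and proliferation genes among them, were left out of the variable genes. A cluster was named when at least 3 markers of a class were 2-fold higher than in other cells, present in 10% of its cells, and 1 was among its 10 leading genes. Remaining clusters became connective tissue if 3 of its markers were 2-fold above the muscle, vessel, blood and nerve classes. That rule was set after clusters had been seen.

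UMIs were summed per class. CPM have exact Poisson intervals, shares exact Clopper-Pearson intervals, ratios exact conditional intervals and differences of shares Newcombe's interval. In the text a count of 0 is given the limit of 3 counts. The figures draw the upper end of its exact interval instead, which is higher. Free RNA was not removed. Genes named are Agtr2, list genes with at least 20 UMIs in muscle or connective tissue, the genes most like Agtr2 (at least 200 UMIs, clusters of at least 20 cells), the 10 highest and 10 lowest within muscle (at least 30 UMIs), and 12 state genes. Of 32285 identifiers, 32235 were found in the GENCODE vM21 annotation, 31502 with the same symbol. The code was tested on simulated data. Python 3.11.15 ran leidenalg 0.10.2, igraph 0.11.9, scikit-learn 1.9.0, pandas 2.3.3, scipy 1.17.1, numpy 2.4.6 and matplotlib 3.10.9.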

Additional observations from a re-analysis of the deposited data

How the results depend on the processing

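The alternatives changed doublet removal, cell filters, clustering, thinning, sex, weighting and the background cells, and 2 choices, muscle cells without connective tissue UMIs and a background without shallow clusters, were added after the data were seen. No result changed sign except muscle over endothelial and immune cells at E12.5, which has no call: it ran from -0.57 to 0.95 on the log2 scale, above 0 in 8 of 13 alternatives. The muscle ratio between ages stayed between 3.60 and 4.96 in 12 alternatives. Muscle over endothelial and immune cells at E15.5 stayed above 0 in 16 alternatives, at 4.43 in male cells, which have 2 background UMIs, and 2.37 with each cell of equal weight. The connective tissue ratio between ages was 3.18 both without doublet removal and in all deposited barcodes, 3.28 at resolution 2.0, 3.12 with both libraries clustered together, 3.32 with no gene left out of the variable genes, 3.17 in male cells, 3.69 in female cells and 3.89 when scaled to the median gene. Muscle over connective tissue at E15.5 was -2.43 without doublet removal, -2.32 in all barcodes, -2.40 with both libraries clustered together and -3.00 for muscle cells without connective tissue UMIs. The thinned difference in shares was 5.75 points at 1000 UMIs, 20.9 at 5000 and 39.3 without thinning, as shares grow with depth, and its interval in male cells (-0.34 to 18.7) includes 0. Otherwise the cause of these shifts was not tested. In 3 alternatives a group had 0 UMIs and no ratio could be given: male muscle cells between ages (67 against 0), male cells at E12.5 (0 and 0), and muscle over immune cells at E12.5 (7 against 0). No paired analysis was possible because the labels carry no replicate numbers and each age is 1 library. With 7 Agtr2 UMIs in muscle and 2 in endothelial and immune cells, depth limits every E12.5 statement on muscle.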

Other observations

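Ren1 and Agt were carried by few cells at E15.5, with a UMI in 4.40% and 1.81% of connective tissue cells. Of the 121 Ren1 UMIs in kept cells, 62.8% lay in the connective tissue cluster led by Fst, Sfrp4 and Clec3b, in 30 of its 652 cells with up to 14 in a cell, and another 23 UMIs lay in the cluster led by Dpt and Apod. The 51 connective tissue cells with a Ren1 UMI had 591 CPM of Agtr2 (528 to 660), and the cells without had 471 CPM (459 to 483), at median depths of 9676 and 10082.5 UMIs. Agt was spread over the same cluster, with 21 of 37 UMIs, and the mural cluster, with 6. Agtr1a had its highest class level in mural cells, 22.5 CPM on 24 UMIs, and 157 connective tissue cells with an Agtr1a UMI had 542 CPM of Agtr2 (509 to 576) against 465 CPM (452 to 478) in those without, at median depths of 11058 and 9903 UMIs. Ctsg, cathepsin G, was found in mast cells at 21.6 CPM on 32 UMIs and was at 0 in muscle and connective tissue at both ages.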
